A study of Mus musculus with 21 samples.

Results

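The bone morphogenetic protein (BMP) genes described here are Bmp2, Bmp4, Bmp6, Bmpr1a, Bmpr2, Acvrl1, Smad6, Id1, Grem1 and Nog, 10 genes picked by symbol from the 20872 genes of an RNA-seq table of mouse aortic valves. Of these, 9 had a row, Grem1 was not analysed here, and 8 reached the mean of 1 FPKM (fragments per gene, corrected for its length and for library size) that was asked of a gene before it was tested. Nog, with a mean of 0.961 FPKM, did not. The 21 libraries fall into 5 groups: N1het stenosis XCT790 (n = 3), N1het stenosis (n = 3), N1het healthy XCT790 (n = 5), N1het healthy (n = 6) and WT (n = 4). N1het mice are heterozygous for Notch1 (N1+/-) and WT mice carry both copies (N1+/+). Every mouse of the series, WT included, was a Terc-/- animal of generation 2, so the WT group is not free of the telomerase deletion. XCT790 is an inverse agonist of the estrogen-related receptor ERRα. It was injected into the peritoneum daily at 5 mg per kg for 4 weeks from 4 weeks of age, and the other mice received the solvent. All WT valves were labelled healthy, and stenosis means a narrowed aortic valve.

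BMPs are secreted ligands of the TGF-beta superfamily. A ligand joins type I receptors (Bmpr1a and Acvrl1 among them) with a type II receptor such as Bmpr2, and the complex phosphorylates Smad1, Smad5 and Smad9, which enter the nucleus with Smad4 and switch on genes such as the Id family. Smad6 blocks this step inside the cell, and Nog (noggin) and Grem1 (gremlin) bind the ligands outside it. In the heart, BMP signals and Notch take part in the formation of the valve cushions, and BMP2 and BMP4 are known from calcified human valves.

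Promoter sequences of 6 of the 10 genes were found in RefSeq (Bmp4, Bmp6, Bmpr1a, Bmpr2, Smad6 and Grem1, build GRCm38.p6). The 250 bases before the start of the receptors Bmpr2 and Bmpr1a are shown because, of the members, Bmpr2 had the smallest p between the mean of the 4 N1het groups and WT, and Bmpr1a between stenotic and healthy valves with both agents averaged. Capitals mark GTGGGAA, the core bound by RBPJ, the DNA-binding partner of cleaved Notch, and GGCGCC, a GC-rich element bound by BMP Smads.
Bmpr2, chr1:59764029-59764278, plus strand: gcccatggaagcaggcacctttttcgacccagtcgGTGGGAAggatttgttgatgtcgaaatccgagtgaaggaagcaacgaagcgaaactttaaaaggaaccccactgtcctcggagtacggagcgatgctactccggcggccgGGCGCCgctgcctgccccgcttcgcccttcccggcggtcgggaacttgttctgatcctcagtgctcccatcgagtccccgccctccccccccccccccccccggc
Bmpr1a, chr14:34502547-34502796, minus strand: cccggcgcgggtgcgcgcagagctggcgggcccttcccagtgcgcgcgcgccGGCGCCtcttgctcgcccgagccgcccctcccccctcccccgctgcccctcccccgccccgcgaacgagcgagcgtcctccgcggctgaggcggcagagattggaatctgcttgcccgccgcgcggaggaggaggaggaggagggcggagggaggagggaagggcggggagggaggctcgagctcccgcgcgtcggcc
GTGGGAA, searched on both strands, lay 215 bases before the start of Bmpr2 and in none of the other 5 promoters, and 5.42% of the 32851 mouse promoters of that length hold it. GGCGCC, which reads the same on both strands, was in the promoters of Bmpr2, Bmpr1a and Grem1 and in 9.59% of all promoters. AAGGTCA, the core bound by estrogen-related receptors, was in none of the 6 and in 4.08% of all. CAGAC, the core that Smads bind, was in those of Bmp6 and Grem1 and in 42.19% of all. These are matches of letters and not evidence of binding.

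The libraries held 8.4 to 27.3 M reads (median 13.7 M), and the 6 with over 16 M reads are called the deep libraries below. They are WT 1, N1het healthy 1 and 4, N1het healthy XCT790 1 and 2, and N1het stenosis XCT790 2. No N1het stenosis library with solvent is among them. Markers of valve interstitial cells were abundant in every library (Dcn at 2580 to 5373 FPKM) and endothelial markers were present (Pecam1 at 51.4 to 302 FPKM). Heart muscle markers varied widely (Tnnt2 at 27.7 to 1859 FPKM), and 7 libraries spread over all 5 groups were rich in them. In 6 libraries the agent label goes against the title, which defined the groups here: solvent is named for N1het healthy XCT790 1 to 3 and XCT790 for N1het stenosis 1 to 3. In these bulk samples fewer cells of a type and less RNA per cell cannot be told apart. Whether libraries of a group came from separate animals is not in the labels. The p-values therefore measure only the spread between libraries, which may be technical.

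All 3 ligands, all 3 receptors, Smad6 and Id1 were expressed in every library. On the FPKM scale, which is per length, Bmpr2 had a mean level of 97.6 ± 20.3 FPKM, Id1 of 94.6 ± 38.2, Bmp4 of 60.0 ± 29.2, Bmp6 of 51.5 ± 17.8, Bmpr1a of 49.8 ± 8.10, Smad6 of 26.8 ± 12.1, Bmp2 of 16.6 ± 10.3 and Acvrl1 of 7.67 ± 3.32 (SD, n = 21). Bmpr2 stood above 96.96% of the genes of the table and Acvrl1 above 62.6%. In the order of mean log2(FPKM + 1) the genes ran Bmpr2, Id1, Bmp4, Bmpr1a, Bmp6, Smad6, Bmp2 and Acvrl1. Of the 7 pairs of neighbours, 4 differed within libraries by a two-sided permutation test of 100000 sign flips: Id1 was 1.64-fold above Bmp4 (adjusted p = 0.00205, higher in 16 of 21 libraries), Bmp6 1.96-fold above Smad6 (adjusted p = 0.00021, 19 of 21), Smad6 1.65-fold above Bmp2 (adjusted p = 0.00217, 17 of 21) and Bmp2 1.90-fold above Acvrl1 (adjusted p = 0.00205, 17 of 21). Bmpr2 and Id1, Bmp4 and Bmpr1a, and Bmpr1a and Bmp6 did not differ beyond their spread. In the 15 libraries outside the deep ones Id1 came before Bmpr2 and Bmpr1a before Bmp4. Again 4 of 7 neighbour pairs differed there, with Bmpr2 and Bmpr1a in place of Id1 and Bmp4, which were not neighbours. Both orders are over all groups. By mean FPKM within groups Id1 came before Bmpr2 in all 4 N1het groups and after it in WT, and in N1het stenosis Bmp2 (27.5 FPKM) came before Smad6 (20.7 FPKM). The 2 most abundant receptors were also the steadiest members. Bmpr1a varied 1.98-fold between its lowest and highest library and only 0.922% of the tested genes had a smaller SD on the log2 scale, and Bmpr2 varied 2.13-fold (3.37%). Bmp2 and Bmp4 varied 11.1-fold and 10.9-fold.

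**Figure D1:**
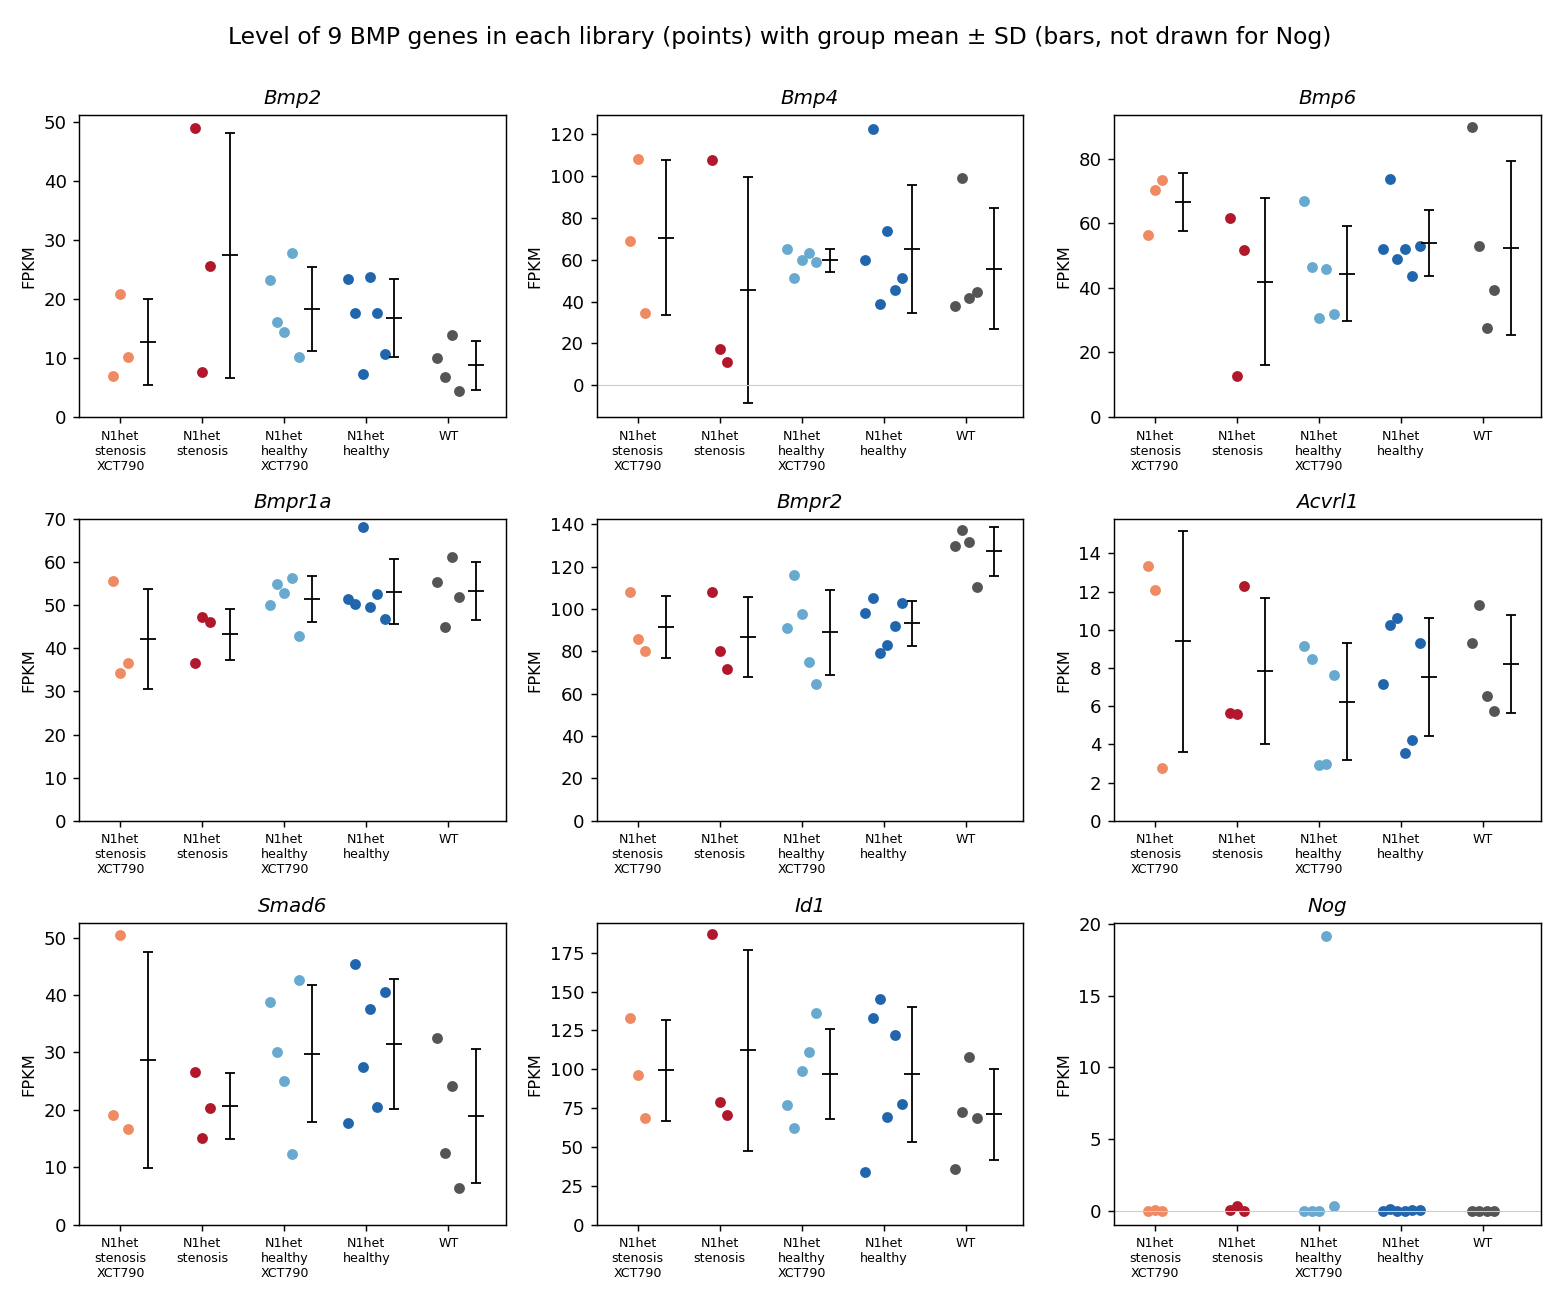
FPKM of the 9 BMP genes with a row, 1 point per library, in the 5 groups; bars give the group mean and SD and are not drawn for Nog. The 4 WT libraries of Bmpr2 lie at 110.6 to 137.5 FPKM and 16 of the 17 N1het libraries lie below them; Nog stands near 0 except in 1 library at 19.1 FPKM.

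None of the 8 members passed the test in any of 9 comparisons (limma, adjusted p under 0.05 over 14966 genes), and none did under any alternative setting, voom on the recovered reads included. The setting with groups from the agent label leaves no stenotic library with solvent. Comparisons that use the N1het stenosis group could therefore not be run under it. What follows gives their values. In N1het stenosis against N1het healthy valves 1 of 8 members had an unadjusted p under 0.05, beside 9.6% of all tested genes. Under XCT790 it was 0 of 8 beside 5.08%, and with both agents averaged 1 of 8 beside 11.5%. Against WT it was 2 of 8 beside 10.4% for N1het stenosis and 1 of 8 beside 7.42% for N1het healthy valves. For XCT790 it was 0 of 8 beside 3.35% in stenotic and 0 of 8 beside 2.65% in healthy valves, and 1 of 8 beside 2.98% for the difference between these effects (the interaction).

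**Figure D2:**
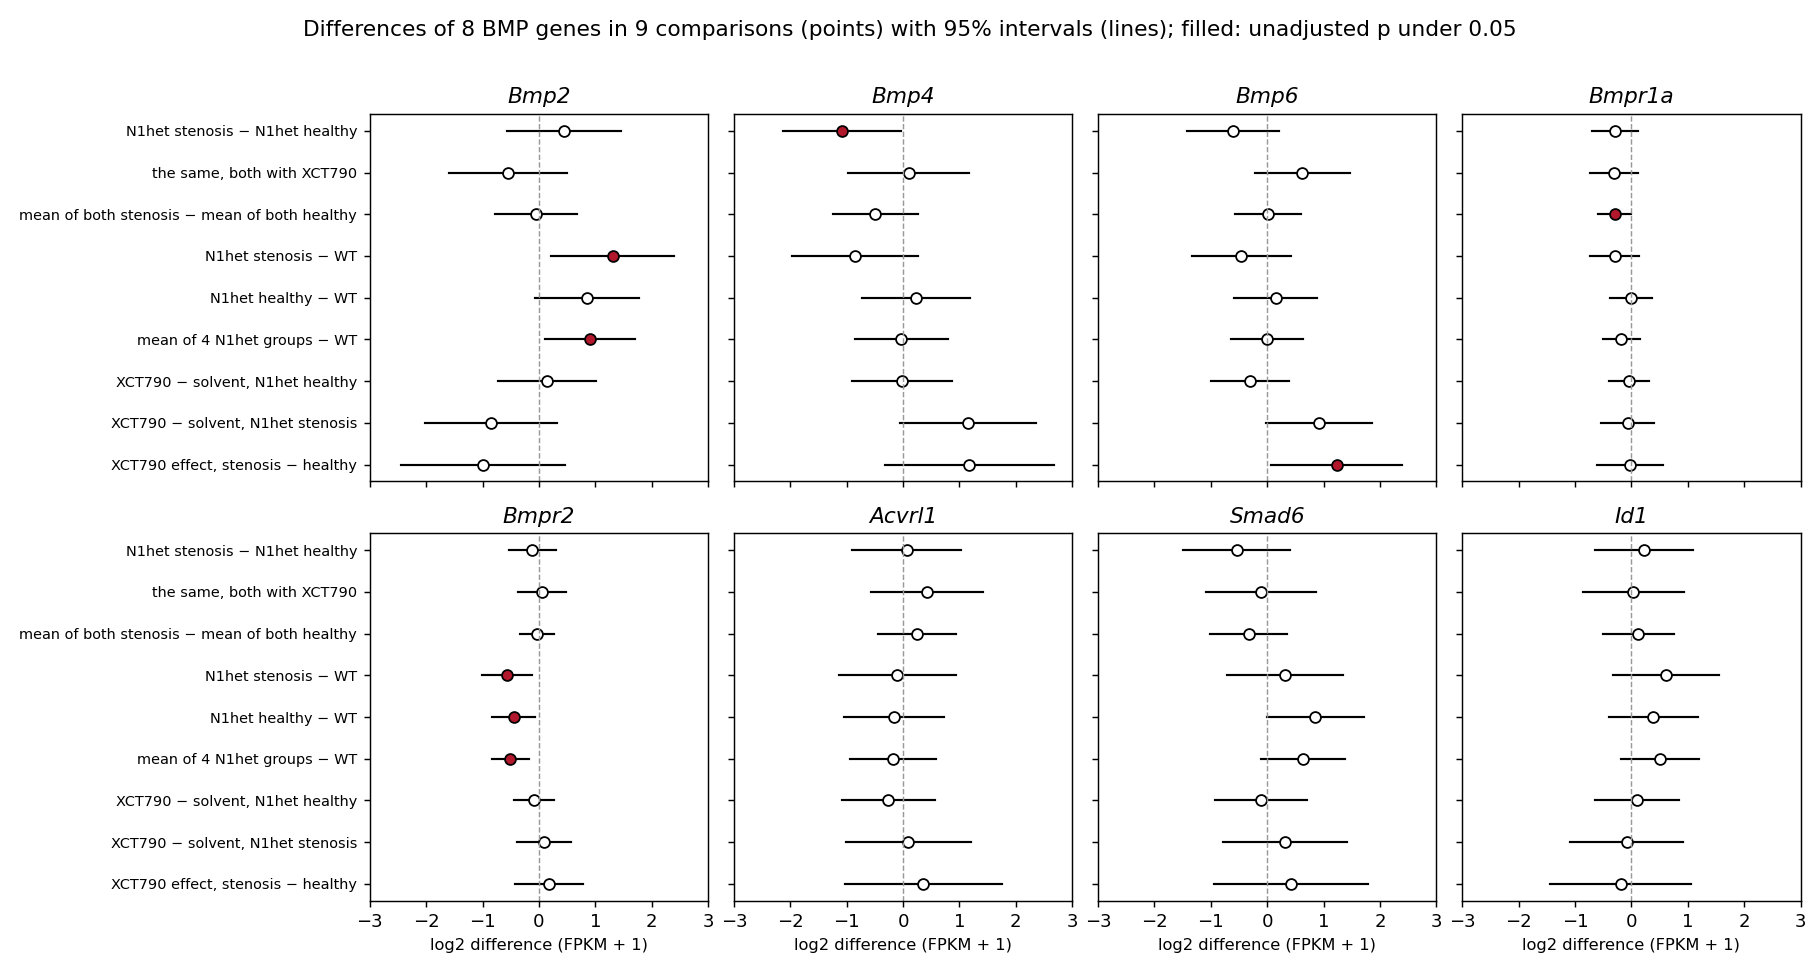
Log2 differences (FPKM + 1) of the 8 tested genes in 9 comparisons, each row with the first-named group minus the second; lines are 95% intervals and filled points have an unadjusted p under 0.05. Bmpr2 lies left of 0 in all 3 comparisons with WT (-0.57, -0.45 and -0.51), and no point has an adjusted p under 0.05.

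N1het valves were set against WT to ask what the loss of a Notch1 copy does without and with stenosis. Bmpr2, the type II receptor through which most BMPs signal, had 108.0, 80.3 and 71.7 FPKM in the N1het stenosis libraries. It lay at 79.1 to 105.4 FPKM in the 6 N1het healthy libraries (median 94.998) and at 129.8, 137.5, 131.5 and 110.6 FPKM in the WT libraries. Both N1het groups lay wholly below WT. The log2 difference was -0.57 ± 0.22 (SE) for N1het stenosis (unadjusted p = 0.0157, adjusted p = 0.368) and -0.45 ± 0.18 for N1het healthy valves (unadjusted p = 0.0233, adjusted p = 0.588), both by limma. Among all tested genes, 3.55% lay wholly below WT in N1het stenosis and 0.294% in N1het healthy valves, so that Bmpr2 is 1 of 44 such genes in the second comparison. The XCT790 groups had 108.3, 85.9 and 80.4 FPKM in stenotic and 91.2, 116.3, 97.7, 75.0 and 64.7 FPKM in healthy valves. Over the 17 N1het libraries the mean was 90.6 FPKM, against 127 FPKM in WT valves. The mean of the 4 N1het groups was set against WT, a comparison added after these values were seen. Its log2 difference was -0.51 ± 0.16 (limma, unadjusted p = 0.00424, adjusted p = 0.284). Bmpr2 ranked 221st of 14966 genes by p there. Across the 33 alternatives of that comparison the difference kept its sign, between -0.61 and -0.47, with adjusted p from 0.203 to 0.639. Over the libraries Bmpr2 went against the melanocyte markers (Spearman rho = -0.58, permutation p = 0.00552, adjusted p = 0.118 over 64 relations). The Pearson r was -0.48, and -0.27 within groups. With the macrophage markers r was -0.45 (permutation p = 0.041, adjusted p = 0.231). The part of either in the difference of Bmpr2 was not tested.

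Bmp2, a ligand that drives bone formation and valve cushion formation, had 49.1, 7.62 and 25.7 FPKM in N1het stenosis libraries. The 6 N1het healthy libraries had 7.33 to 23.7 FPKM (median 17.6), and WT libraries had 10.1, 6.73, 13.99 and 4.41 FPKM. The groups overlapped, since N1het stenosis 2 lay among the WT libraries. The log2 difference was 1.31 ± 0.53 for N1het stenosis against WT (limma, unadjusted p = 0.0214, adjusted p = 0.398) and 0.86 ± 0.44 for N1het healthy against WT (unadjusted p = 0.0675, adjusted p = 0.697). Without N1het stenosis 1 the first value was 0.73 and without N1het stenosis 2 it was 2.00. Of the 17 N1het libraries of all groups, 11 lay above the highest WT library and none below the lowest. The mean over these 17 libraries was 18.4 FPKM against 8.80 FPKM in WT. The mean of the 4 N1het groups had a log2 difference from WT of 0.90 ± 0.39 (limma, adjusted p = 0.427). The level of Bmp2 went with read depth over the libraries (Pearson r = 0.46). WT 4, its lowest library, had the lowest total, at 8.42 M reads, while WT 1, at 10.1 FPKM, held 21.5 M reads. In the 15 libraries outside the deep ones the log2 difference from WT was 1.40 for N1het stenosis and 0.66 for N1het healthy valves. The part of depth was not tested further.

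Smad6, the inhibitory Smad, had 17.7 to 45.4 FPKM in N1het healthy valves (median 32.5) and 32.5, 12.5, 24.2 and 6.36 FPKM in WT valves, and the groups overlapped. Its log2 difference of 0.85 ± 0.42 (limma, unadjusted p = 0.0529, adjusted p = 0.681) was 0.28 without the libraries rich in heart muscle markers, 0.45 without WT 4 and 1.28 in the 15 libraries outside the deep ones. Id1, a direct target of BMP Smads, averaged 96.9 ± 43.4 FPKM in N1het healthy valves (n = 6) and 71.0 ± 29.5 FPKM in WT valves (SD, n = 4), with an adjusted p of 0.854 by limma. Bmp4, Bmp6, Bmpr1a and Acvrl1 had log2 differences between -0.16 and 0.23 in that comparison. Over all tested genes 0% passed the adjusted test in N1het healthy against WT valves, 0.0334% in N1het stenosis against WT and 0.02% in the mean of the 4 N1het groups against WT. In that last comparison 2 of 8 members, Bmpr2 and Bmp2, had an unadjusted p under 0.05, beside 10.1% of all genes.

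Stenotic were set against healthy N1het valves for the question of what accompanies the narrowing. Bmp4, a ligand closely related to Bmp2, had 107.6, 17.4 and 11.2 FPKM in N1het stenosis libraries, against 38.7 to 122.6 FPKM in N1het healthy libraries (median 55.4). Of the stenotic libraries, 2 were lower than every other library of the series and 1 was among the highest. The 2 low ones, N1het stenosis 2 and 3, held 8.86 and 9.08 M reads, and N1het stenosis 1 held 15.1 M. Bmp4 went with read depth, with a Pearson r of 0.48 over all libraries and 0.71 outside the deep ones. The part of depth in this split was not tested. The log2 difference was -1.08 ± 0.50 (limma, unadjusted p = 0.0426, adjusted p = 0.499). It was -2.03 without N1het stenosis 1 (adjusted p = 0.0819), -0.46 without N1het stenosis 3 and -0.63 without the libraries rich in heart muscle markers. Under XCT790 the levels were 68.9, 108.2 and 34.3 FPKM in stenotic and 65.2, 51.3, 59.8, 63.3 and 58.7 FPKM in healthy valves, a log2 difference of 0.10 ± 0.52 (adjusted p = 1). Its direction turned with the setting: it was -0.52 with groups from the agent label, -0.31 in the 15 libraries outside the deep ones and -0.28 without N1het stenosis XCT790 2, and 0.53 without N1het stenosis XCT790 3. Over all tested genes, 5.01% were lower in N1het stenosis at an unadjusted p under 0.05 and 0.0334% were called, and under XCT790 0% were called.

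Bmpr1a, the type I receptor for BMP2 and BMP4, had a log2 difference of -0.29 without and -0.31 with XCT790 between stenotic and healthy valves. It had 55.5, 34.4 and 36.5 FPKM in N1het stenosis XCT790 and 36.5, 47.2 and 46.03 FPKM in N1het stenosis libraries. The healthy groups had 50.0, 55.0, 52.8, 56.3 and 42.9 FPKM with XCT790, and 46.8 to 68.1 FPKM with solvent (median 50.9). Of the 6 stenotic libraries, 5 lay below the median of the 11 healthy ones, and the groups overlapped. With both agents averaged the log2 difference was -0.30 ± 0.14 (limma, unadjusted p = 0.0456, adjusted p = 0.421), and across 30 alternatives it lay between -0.51 and -0.24. Over the libraries the level of Bmpr1a went against the macrophage markers (Pearson r = -0.58, permutation p = 0.0059, adjusted p = 0.157 over 64 relations of members and marker lists; Spearman rho = -0.46, permutation p = 0.0356, adjusted p = 0.276). Its r was -0.50 without the 2 farthest libraries, -0.62 in the 15 libraries outside the deep ones and, smaller, -0.34 within groups. Summed macrophage markers were at 1656 to 7188 FPKM in N1het stenosis XCT790 and 3275 to 6019 FPKM in N1het stenosis, against 1036 to 3122 FPKM in N1het healthy XCT790 and 817 to 1978 FPKM in N1het healthy valves. Their part in the difference of Bmpr1a was not tested.

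The other 6 members had log2 differences from -0.33 (Smad6) to 0.24 (Acvrl1) between stenotic and healthy valves with both agents averaged. Smad6 had 26.7, 15.1 and 20.4 FPKM in N1het stenosis libraries, and 15.1 FPKM lay below the range of the N1het healthy ones. Bmpr2 averaged 89.1 FPKM in stenotic and 91.4 FPKM in healthy valves, with a 95% interval of the log2 difference from -0.33 to 0.27. Bmp6, known in the liver as the ligand that governs iron uptake through hepcidin, averaged 54.3 FPKM in stenotic and 49.6 FPKM in healthy valves, with an interval from -0.57 to 0.59. That mean joins opposite signs. With solvent Bmp6 averaged 41.96 FPKM in stenotic and 53.9 FPKM in healthy valves (log2 difference -0.61 ± 0.39, limma, adjusted p = 0.677), and with XCT790 66.7 FPKM in stenotic and 44.4 FPKM in healthy valves (0.62 ± 0.40, adjusted p = 0.96). Id1 averaged 106 FPKM in stenotic and 97.02 FPKM in healthy valves, with an interval from -0.50 to 0.75. The median log2 difference of the 8 members was -0.04 with both agents averaged, beside 0.00223 for all tested genes.

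The XCT790 comparisons ask whether blocking ERRα moves these genes. In stenotic valves Bmp6 had 56.5, 70.2 and 73.5 FPKM with XCT790 and 61.5, 12.6 and 51.8 FPKM with solvent. All but the lowest of the XCT790 libraries lay above every solvent library, and the solvent library at 12.6 FPKM was the lowest of the series. The log2 difference was 0.92 ± 0.45 (limma, unadjusted p = 0.0532, adjusted p = 1), and it was 0.23 without N1het stenosis 2. Bmp4 had a log2 difference of 1.15 ± 0.58 there (unadjusted p = 0.059, adjusted p = 1), which was 0.53 without N1het stenosis 3 and 2.11 without N1het stenosis 1 (adjusted p = 0.742). Bmp2 had 6.9998, 20.9 and 10.2 FPKM with XCT790, against the 49.1, 7.62 and 25.7 FPKM with solvent (log2 difference -0.85 ± 0.56, adjusted p = 1). That value for Bmp2 was -0.28 without N1het stenosis 1, -0.53 without N1het stenosis XCT790 1 and -1.55 without N1het stenosis 2. In healthy valves Bmp6 had 67.05, 46.5, 30.7, 45.9 and 32.0 FPKM with XCT790 and 43.8 to 73.8 FPKM with solvent (median 52.1), a log2 difference of -0.31 ± 0.33 (adjusted p = 1), which lay between -0.58 and -0.15 across the alternatives. The 8 members lay between -0.31 and 0.15 there, with a median size of 0.11 beside 0.24 for all tested genes. With groups from the agent label, which moves N1het healthy XCT790 1 to 3 to the solvent side, Bmpr2 was at -0.45 (-0.09 with groups from the titles, adjusted p = 0.631 by limma under the agent label) and Id1 at 0.55 (0.11 with groups from the titles, adjusted p = 0.843 likewise). That label also moves N1het stenosis 1 to 3 to the XCT790 side. The effect of XCT790 in stenotic valves and the interaction could therefore not be computed with it. For Bmp6 the effect of XCT790 in stenotic minus that in healthy valves was 1.23 ± 0.56 (unadjusted p = 0.0389, adjusted p = 1), 0.49 without the libraries rich in heart muscle markers and 0.54 without N1het stenosis 2. Both differences for Bmp6 rest on the solvent group that holds the library at 12.6 FPKM. Of all tested genes 0% were called in stenotic valves, in healthy valves and for the interaction, and voom called 0 as well.

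Nog, which binds BMP2 and BMP4 and keeps them from their receptors, was listed at 0 in 13 of 21 libraries. In all others but 1 it rested on 1 to 7 reads. The exception was N1het healthy XCT790 4, with 469 reads and 19.1 FPKM, while the next highest library, N1het healthy XCT790 5, had 0.358 FPKM. In that library 20 genes, Nog among them, stood at 5 FPKM or more and 10-fold above every other library, and the other libraries had 5 to 44 such genes each. Nog was therefore described per library and not tested.

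A list of 62 genes of the BMP pathway, of which 58 had a row and 46 were tested, was read in the same fits. With both agents averaged, 35 of the 46 were lower in stenotic than in healthy valves, 14 of them at an unadjusted p under 0.05 and 1 higher, and 0 passed the adjusted test, where 0.374% of all genes did. Among all tested genes 49.8% were lower and 5.49% were lower at that unadjusted p. The median log2 difference was -0.27 for the list and 0.00223 for all genes. Among the alternatives that kept all 46 genes, 31 to 37 were lower, with 7 to 17 at the unadjusted p, the fewest at that p within the 15 libraries outside the deep ones (3.55% of all genes) and 9 without N1het stenosis XCT790 3. Without the libraries rich in heart muscle markers 35 were lower, 11 of them at the unadjusted p. Summed markers of valve interstitial cells moved with these groups, with 5668 to 7436 FPKM in N1het stenosis XCT790 and 5451 to 6266 FPKM in N1het stenosis, against 8366 to 9951 FPKM in N1het healthy XCT790 and 7445 to 11566 FPKM in N1het healthy valves. The stenotic libraries lay wholly below the healthy ones in that sum, and its part in the counts was not tested.

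The list is given by role, and no test compared the roles. All 5 tested intracellular and membrane inhibitors had a log2 difference below 0, 3 of them at an unadjusted p under 0.05 (median -0.40, against -0.49 for the ligands). Smad6, one of the 5, was at 0.03 without the libraries rich in heart muscle markers. Bambi, a decoy receptor without a kinase, had 1.79 to 7.37 FPKM in the 6 stenotic libraries (median 3.50) and 5.47 to 11.8 FPKM in the 11 healthy ones (median 9.52), and its log2 difference was -1.07 ± 0.25 (limma, adjusted p = 0.0636). Smad7, the second inhibitory Smad, had a median of 19.0 FPKM in stenotic and 23.7 FPKM in healthy valves (-0.62 ± 0.23, adjusted p = 0.283, and -0.33 without N1het stenosis XCT790 3), and the ubiquitin ligase Smurf2 one of 36.0 FPKM in stenotic and 43.4 FPKM in healthy valves (-0.40 ± 0.18, adjusted p = 0.384). Of 10 extracellular antagonists and modulators, 9 were lower and 3 of these had an unadjusted p under 0.05. Bmper, a secreted BMP-binding protein, had 18.3 to 27.07 FPKM in stenotic and 27.13 to 68.1 FPKM in healthy libraries, with a log2 difference of -0.75 ± 0.20 and an adjusted p of 0.126 by limma. Its stenotic libraries lay wholly, if barely, below the healthy ones, as did those of 0.107% of all tested genes. All 6 stenotic libraries of Bambi lay below its healthy median, as did those of Bmp5, Gdf7, Fstl1, Bmper, Msx1 and Hey1 below theirs. The share of all tested genes with this trait was not counted. Twsg1, which binds BMPs together with chordin, had medians of 97.6 FPKM in stenotic and 158 FPKM in healthy libraries (adjusted p = 0.17). Fstl1 was the most abundant of this role, with medians of 263 FPKM in stenotic and 299 FPKM in healthy libraries. Fst (follistatin) was the gene higher at an unadjusted p under 0.05, at 28.3 FPKM in stenotic and 12.7 FPKM in healthy valves (adjusted p = 0.385), with a log2 difference of 1.16 that was 0.59 outside the deep libraries; it was named after its values were seen.

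**Figure D3:**
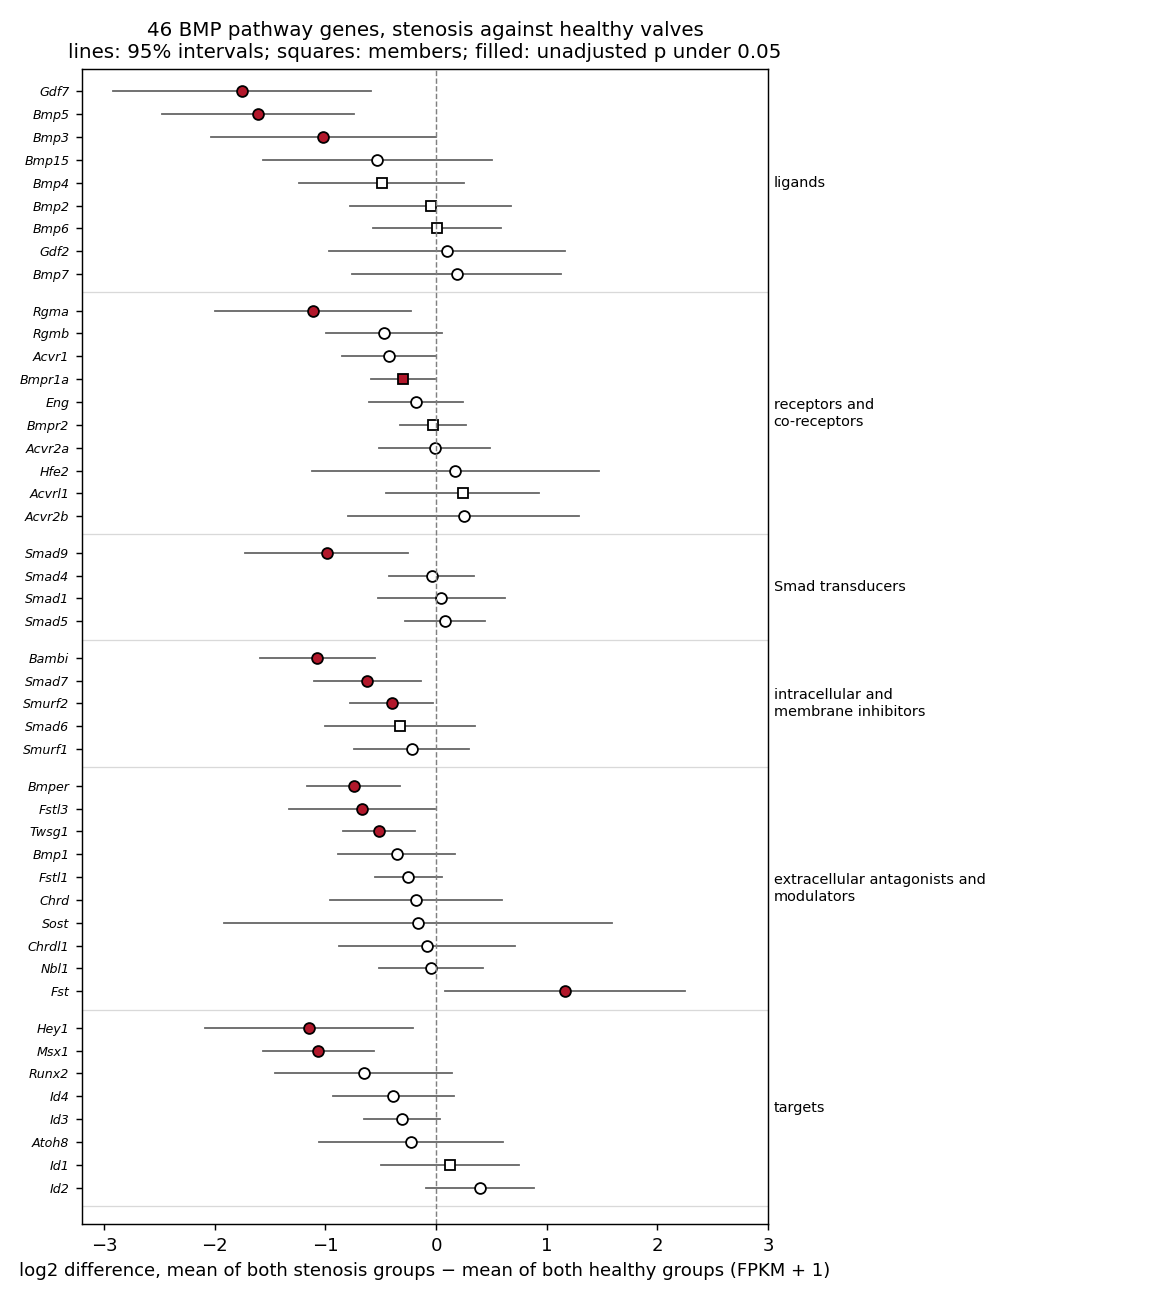
Log2 difference (FPKM + 1) of the 46 tested pathway genes between the mean of both stenosis groups and the mean of both healthy groups, by role, with 95% intervals; squares are the 8 members and filled symbols have an unadjusted p under 0.05. Of the 46 genes 35 lie left of 0, and Fst is the filled symbol on the right.

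Of 9 ligands 6 were lower and 3 of these at an unadjusted p under 0.05. Bmp5 had a median of 2.13 FPKM in stenotic and 8.92 FPKM in healthy libraries (log2 difference -1.61 ± 0.42, limma, adjusted p = 0.0984) and Gdf7 one of 0.299 FPKM in stenotic and 6.24 FPKM in healthy libraries (-1.76 ± 0.56, adjusted p = 0.198). Gdf7 ran from 0.0802 to 2.65 FPKM in the stenotic libraries, within its healthy range of 0 to 11.7 FPKM. Among 10 receptors and co-receptors 7 were lower, and the co-receptors Rgma (-1.11 ± 0.43, adjusted p = 0.297, and -0.62 without N1het stenosis 3) and Eng (-0.18 ± 0.20, adjusted p = 0.799) and the type I receptor Acvr1 (-0.42 ± 0.20, adjusted p = 0.437) did not pass. The Smad transducers were split, with 2 of 4 lower: Smad9 stood at a median of 1.46 FPKM in stenotic and 3.68 FPKM in healthy libraries (adjusted p = 0.259). Smad5 stood at 25.04 FPKM in stenotic and 24.2 FPKM in healthy libraries (adjusted p = 0.911 by limma), and Smad4 at 22.5 FPKM in stenotic and 23.6 FPKM in healthy ones (adjusted p = 0.963). Of 8 targets 6 were lower. Msx1, a homeobox gene of the cushion mesenchyme, had 6.73 to 19.6 FPKM in stenotic and 16.5 to 43.2 FPKM in healthy libraries, with a log2 difference of -1.07 ± 0.24 (limma, adjusted p = 0.0562). Hey1, which is a target of Notch as well as of BMP, had medians of 13.1 FPKM in stenotic and 30.6 FPKM in healthy libraries (-1.15 ± 0.45, adjusted p = 0.309). The Id genes were not uniform: Id3 had medians of 200 FPKM in stenotic and 228 FPKM in healthy libraries (adjusted p = 0.494 by limma), and Id2 of 78.9 FPKM in stenotic and 50.7 FPKM in healthy ones (adjusted p = 0.542). Msx1, Bambi and Bmp5 crossed the threshold in some alternatives, given with the other settings.

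The pathway list in the other comparisons held 0 called genes as well. In N1het stenosis against N1het healthy valves 10 of 46 were higher, beside 46.8% of all tested genes, and 12 were lower at an unadjusted p under 0.05, beside 5.01%, and 0 higher. The count of lower genes at that p moved with the setting. It was 6 with voom (1 higher, beside 3.54% of all genes lower) and 7 without the libraries rich in heart muscle markers (4.35%). Without N1het stenosis 1 it was 14 (5.04%). Under XCT790 15 of 46 were higher, beside 53.4% of all tested genes, and 4 were lower at that p, beside 2.43%, and 0 higher. In N1het healthy against WT valves 32 of 46 were higher, beside 57.6% of all genes. Of these, 4 (Bambi, Bmper, Smad4 and Acvr2a) had an unadjusted p under 0.05, beside 5.29% of all tested genes. At that p 1 of 46, Bmpr2, was lower, beside 2.13%. Bmper averaged 46.2 FPKM in N1het healthy and 23.5 FPKM in WT valves there (limma, log2 difference 0.93 ± 0.26, adjusted p = 0.409). The comparisons of N1het stenosis with N1het healthy valves and of N1het healthy with WT valves share the N1het healthy libraries. In N1het stenosis against WT valves 14 of 46 were higher, beside 54.4% of all tested genes. At an unadjusted p under 0.05, 6 were lower, beside 4.1%, and 3 higher, beside 6.35%. Bambi had 4.42 to 6.72 FPKM and Bmper 15.9 to 34.5 FPKM in the WT libraries. These ranges overlapped with those of the stenotic libraries. In the authors' deposited table none of the 9 members was marked as changed in any of 5 comparisons. That table marked Twsg1, Bambi, Smad9, Msx1, Bmper and Gdf7 for N1het stenosis against N1het healthy valves, among 262 genes (1.26% of the table), and Twsg1 for N1het stenosis against WT, among 281 (1.35%). The sources used here do not name the test behind these marks.

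Members did not follow each other closely from library to library. Over the 21 libraries the Pearson r between pairs of the 8 members ran from -0.27 (Bmp2 and Bmpr1a) to 0.42 (Bmp4 and Bmp6), and the smallest adjusted p over the 28 pairs was 0.589 by permutation. The genes whose pattern was most like Bmpr2 were Ptpn14 (r = 0.86) and Phf17 (0.78), and most like Smad6 were Ogfod1 (0.83) and Cxx1a (0.76). For Acvrl1 they were Parvb (0.81) and Ufsp1 (0.78), and for Id1 Cmc1 (0.84) and Nme2 (0.82), whose r was 0.55 and 0.52 outside the deep libraries. For Bmp4 they were Pear1 (0.76) and Flot1 (0.76), for Bmp2 Tex261 (0.75) and Me1 (0.74), for Bmp6 Grik5 (0.72) and Rnf220 (0.71), and for Bmpr1a Hnrnph1 (0.79) and Ociad1 (0.76). These are the highest of 14966 genes, all measured in the same libraries and scaled by the same depth.

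Acvrl1, the type I receptor of endothelial cells known as ALK1, had the highest r with the endothelial markers of any member, 0.60 over 21 libraries (permutation p = 0.00417, adjusted p = 0.157 over 64 relations). Its Spearman rho was 0.55 (permutation p = 0.0104, adjusted p = 0.149), its r was 0.60 without the 2 farthest libraries, 0.65 in the 15 libraries outside the deep ones and 0.57 within groups. Id1 had an r of 0.50 (permutation p = 0.0203, adjusted p = 0.216) and a rho of 0.62 (permutation p = 0.0031, adjusted p = 0.118), and its r was 0.35 without the 2 farthest libraries. Neither passed the adjusted permutation test. Relations of like size were seen with the mitochondrially encoded list, of which 1 gene, mt-Co2, was used. Against it Smad6 had an r of -0.57 (permutation p = 0.00738, adjusted p = 0.157). Bmp4 had a rho of -0.61 with it (permutation p = 0.00381, adjusted p = 0.118). The mitochondrial share of reads ran from 0.0581% to 8.40% over the libraries, and its part in the levels was not tested. The levels of 4 members went with read depth at an unadjusted permutation p under 0.05: Smad6 (r = 0.55, rho = 0.54), Bmp6 (0.50, 0.51), Bmp4 (0.48, 0.56) and Bmp2 (0.46, 0.45), with adjusted p of 0.0716 to 0.0762 for r. Outside the deep libraries their r was 0.46, 0.45, 0.71 and 0.42. Bmpr1a, Bmpr2 and Acvrl1 had r of 0.03, 0.12 and 0.08. Id1 had an r of -0.27 over all 21 libraries (rho = -0.15, adjusted permutation p = 0.366 for r) and, with the other sign, 0.66 in the 15 outside the deep ones. The part of depth in the differences between groups was not tested beyond the settings with the deep libraries left out or as a term, in which no member passed the threshold.

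**Figure D4:**
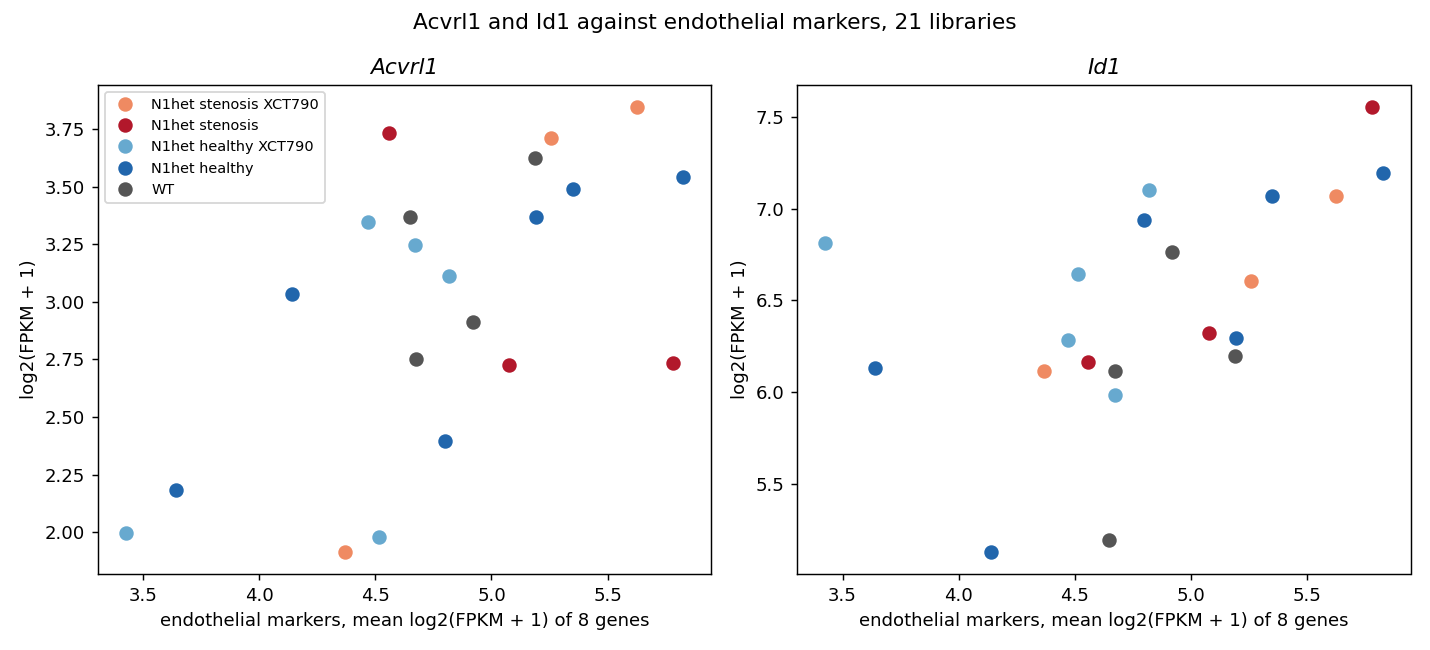
Level of Acvrl1 (left) and Id1 (right), log2(FPKM + 1), against the mean log2 level of 8 endothelial marker genes, 1 point per library and coloured by group. Acvrl1 climbs with the markers over the 21 libraries (r = 0.60) and the colours are mixed along the axis.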

How the data were processed

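Per the labels' protocols, RNA from directly lysed aortic valves went through Qiagen's RNeasy Micro kit and was amplified for sequencing with NuGEN's Ovation system. FastQC, HISAT2, SAMtools and Picard and the build mm9 come from the submitters' processing notes; versions, annotation, counter and strand setting are not given in those sources, and overlapping or antisense genes may share reads. The authors deposited FPKM per gene and library, their group means (equal to the means of the columns) and marks of 0 or 1 for changed genes (no score or p-value). Groups follow the titles.

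Each FPKM is a whole multiple of a step, and 100% of 348565 nonzero values came out as whole reads within 0.01 reads; these reads gave the totals and the voom setting. Low levels are measured less exactly in the smaller libraries, and amplified reads are not independent molecules.

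A model of 5 group means was fitted with limma 3.58.1 (R 4.3.3, statmod 1.5.0; trend and robust variances) to log2(FPKM + 1), for 14966 genes whose mean reached 1 FPKM. A fold difference on this scale understates the change of low genes. P-values were adjusted by Benjamini and Hochberg over all tested genes of a comparison. The fit was tested on simulated data. Levels were ordered and relations computed with Python 3.11.15, numpy 2.4.6 and scipy 1.17.1; tests are two-sided.

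The members and lists were chosen with earlier results of these data known. Named are all members; in each role list the 2 other pathway genes of highest mean and the 2 of smallest p with both agents averaged; 2 genes most like each member, passing over symbols that are only model names; and leading markers. Of 62 pathway genes, Bmp10, Grem1, Cer1 and Mgp were not analysed here. Samples of one replicate number did not deviate together (34 pairs, mean r = 0.0104, -0.109 to 0.13). Promoters are RefSeq's for GRCm38.p6, another build than the table's mm9, and were matched by symbol.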

Additional observations from a re-analysis of the deposited data

Results flagged for a closer look

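A single library stood apart from its group in 4 of the 26 groups of 4 to 6 libraries examined, by Dixon's 95% criterion on the log2 scale, and chance alone flags about 1 in 20 such groups. Bmp4 had 98.9 FPKM in WT 2, where the other WT libraries had 37.9 to 44.5 FPKM. Bmp6 had 73.8 FPKM in N1het healthy 2, the highest of 6, where the other libraries of the group had 43.8 to 52.9 FPKM. Bmpr1a had 68.1 FPKM in N1het healthy 3, the highest of 6, where the other libraries of the group had 46.8 to 52.6 FPKM. Nog had 19.1 FPKM in N1het healthy XCT790 4, on 469 reads, where the other 4 libraries of the group had at most 0.358 FPKM. The causes were not tested.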

How the results depend on the processing

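The count of called members was 0 in all 227 combinations of comparison and alternative, and the count of called pathway genes was as reported (0) in 220 of 227. The exceptions were all in stenotic against healthy valves with both agents averaged: 3 at an adjusted p under 0.1 (Msx1, Bambi and Bmp5), 2 with a mean of 5 FPKM or more (fewer genes tested), 1 with only the compared groups, 1 with agents pooled, and 0 to 2 when 1 library was left out. The called genes over the whole table numbered 56 in that comparison, 0 within the 15 libraries outside the deep ones, 2 without N1het stenosis 3, 20 to 33 without N1het stenosis 1, N1het stenosis XCT790 2 or 3, or N1het healthy XCT790 1 or 2, 148 at an adjusted p under 0.1, 97 with the replicate block, 84 with voom and 124 with voom and sample weights. N1het stenosis against N1het healthy gave 5 (0 with voom, 22 with voom and sample weights, 19 with the replicate block, 2 to 11 with 1 library left out) and against WT 5 (3 with voom, 3 with the block, 0 to 3 with 1 library left out). The mean of the 4 N1het groups against WT gave 3 (0 with voom, 0 to 15 with 1 library left out), and each other comparison gave 0, with at most 5 under an alternative. The replicate block changed no call among members or pathway genes, with 0 called in each comparison. Whether the replicate numbers pair samples is not in the labels. Of the 7 neighbour pairs in the order of levels, 4 differed under each of the 3 alternatives, but not always the same 4. Id1 and Bmp4 were not neighbours outside the deep libraries, nor were Bmp6 and Smad6 when genes were ordered by median level. The comparison of the 4 N1het groups with WT and the setting without the 7 libraries rich in heart muscle markers were chosen after seeing the data. Groups of 3 libraries, totals from 8.4 M reads and possibly shared animals limit what can be told apart.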
